A study of Mus musculus with 4 samples.

Results

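Growth factors and receptors of liver regeneration were followed as 10 genes, taken by name from the 13903 genes of the deposited table. They are the ligands Hgf, Tgfa, Areg and Hbegf and the receptors Met, Egfr, Erbb2, Erbb3, Fgfr4 and Tnfrsf12a. RNA was sequenced in bulk from whole liver of OGT-floxed mice on a C57BL/6J background, all fed a CDE diet (choline-deficient and ethionine-supplemented), which injures hepatocytes. Mice given AAV8-TBG-CRE form the groups labelled OGT-KO. Those given AAV8-TBG-eGFP form the groups labelled Control, written control below. Each label has 1 library with no recovery and 1 library after 7 days of recovery, 4 conditions in all. The TBG promoter restricts Cre to hepatocytes, so the other liver cells keep the floxed Ogt gene, which encodes the O-GlcNAc transferase. Each library held equal RNA of 3 mice pooled before sequencing, so no value has a replicate error and no difference has a test. No library without the diet was analysed here, and the labels give no age or sex.

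After tissue loss, hepatocytes re-enter the cell cycle under signals from other liver cells and from their neighbours. HGF, made mainly by stellate and endothelial cells, acts through the receptor tyrosine kinase MET. TGF-α, amphiregulin and HB-EGF are made as membrane precursors, are released by ADAM proteases and activate EGFR, which pairs with ERBB2 or the kinase-impaired ERBB3. FGFR4, with the co-receptor β-Klotho, reads the bile acid-induced hormone FGF15 in hepatocytes. TNFRSF12A (Fn14) is the receptor of TWEAK, a cytokine that drives the progenitor and ductular response.

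The libraries held 19972699 to 22866431 reads on the listed genes. Levels are given as CPM, reads scaled to a total of 1000000 of these, with 95% exact Poisson intervals that cover counting error only and not differences between mice. With no recovery, Ogt itself was at 64.7 CPM under the control label and at 55.3 under the OGT-KO label. After 7 days it was at 55.7 and 77.7, so the whole-gene level went against the label there, and every direction below is a direction between labels. Albumin, at 41361.8 to 54434.5 CPM, marked all 4 libraries as liver. The comparison took in the 8963 genes whose average over all 4 libraries reached 10 CPM. It used the log2(CPM + 1) scale, on which changes of low genes come out too small, and a call needed a 2-fold difference, that is 1 on this scale. The median compared gene stood at 0.51 with no recovery and 0.48 after 7 days in the libraries labelled OGT-KO relative to control, so the scaling matters. With median ratio scaling, which sets the libraries level by the ratio of their typical gene, these medians were -0.19 and -0.18.

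Promoter sequence is shown for Areg, Erbb2, Tnfrsf12a and Egfr, which were among the genes that stood furthest apart between the labels. Each line gives the 120 bases just before the gene, 5′ to 3′ on the strand of the gene, from the RefSeq GRCm38.p6 start and outside the gene as GENCODE places it. Capitals mark matches to the searched motifs: the CRE motif TGACGTCA, bound by CREB and ATF factors, the TEAD motif GGAATG and the AP-1 motif TGANTCA, on both strands. The matches did not overlap each other.
Areg (chr5:91139479-91139598, plus strand): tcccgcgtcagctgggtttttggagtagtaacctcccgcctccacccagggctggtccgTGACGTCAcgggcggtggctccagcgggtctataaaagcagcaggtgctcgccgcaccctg
Erbb2 (chr11:98412350-98412469, plus strand): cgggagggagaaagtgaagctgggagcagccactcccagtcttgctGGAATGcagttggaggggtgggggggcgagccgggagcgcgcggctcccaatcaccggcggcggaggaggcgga
Tnfrsf12a (chr17:23677469-23677588, minus strand): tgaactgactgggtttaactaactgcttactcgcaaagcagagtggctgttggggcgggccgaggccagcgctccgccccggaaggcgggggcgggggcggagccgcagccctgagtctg
Egfr (chr11:16752083-16752202, plus strand): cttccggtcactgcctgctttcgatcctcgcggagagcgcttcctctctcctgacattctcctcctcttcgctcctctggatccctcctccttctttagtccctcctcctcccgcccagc

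Over windows of 250 bases before to 50 after the RefSeq start, 8 of the 10 genes had an entry, with 9 windows in all. Areg held the CRE motif 61 bases before its start, and 1.79% of all 32851 promoter windows held it. Met held the AP-1 motif 54 bases before its start, against 7.81% of windows. The TEAD motif stood 88 bases before the RefSeq start of Erbb2 and 2 bases after that of Fgfr4 on its minus strand, against 14.7% of windows. The Erbb2 line above stops at 98412469, just before the GENCODE start, so there the motif lies less than 88 bases from the end. A match describes the letters only, and no binding was measured.

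All 4 ligands were higher in both libraries labelled OGT-KO, together with the receptors Tnfrsf12a and Erbb2. The hepatocyte receptors Egfr and Fgfr4 were lower. At the deposited scaling Erbb3 was lower by less than 2-fold and Met differed little. With no recovery, 3 of the 7 genes past the filter were called higher (Hgf, Tgfa and Tnfrsf12a), against 24.4% of all compared genes. Egfr and Fgfr4 were called lower, 2 of 7 against 5.69%. After 7 days the same 3 were called higher, against 22.9%, and Egfr alone was called lower, against 4.27%. Erbb2, Areg and Hbegf stayed under the filter on their mean, and Hgf and Tnfrsf12a passed it only through their level in the libraries labelled OGT-KO. Over all 10 genes with no filter, 6 were at least 2-fold higher at each time point, against 33.1% and 32.3% of the 13903 listed genes. Without the filter 2 of 10 were lower with no recovery (4.35% of listed genes) and 1 of 10 after 7 days (3.32%). With median ratio scaling and no recovery, 2 of 7 were called higher (Hgf and Tnfrsf12a), against 10.4% of compared genes. There 3 of 7 were called lower (Egfr, Erbb3 and Fgfr4), against 15.4%. After 7 days 2 of 7 were higher, against 11.6%, and 2 of 7 lower (Egfr and Fgfr4), against 11.8%.

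**Figure D1:**
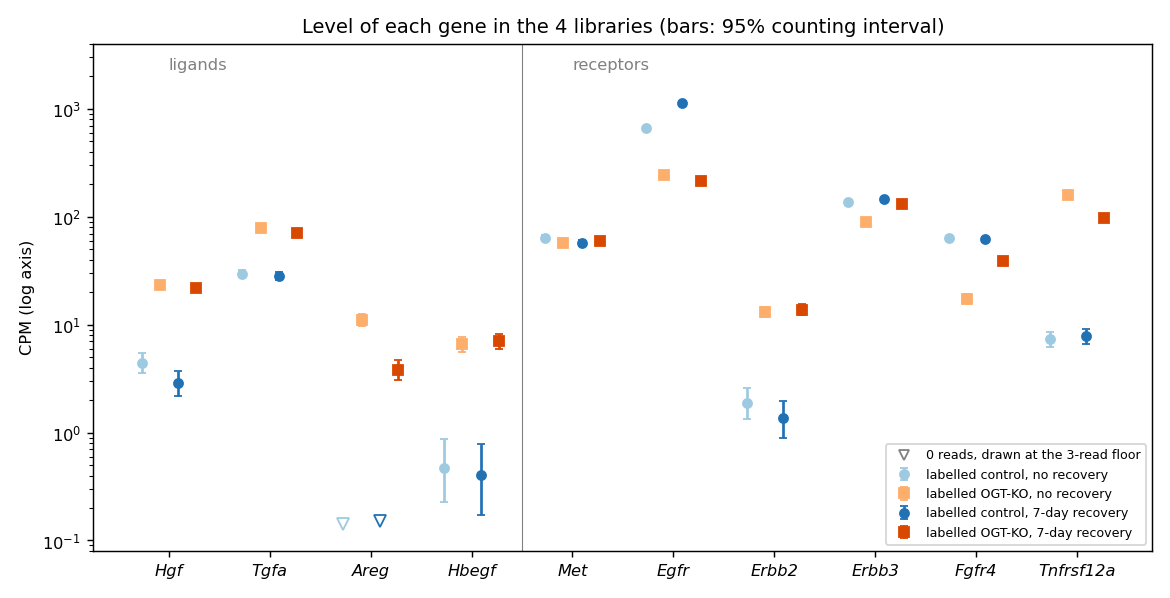
CPM of the 10 genes (log axis) in the 4 libraries, with 95% exact Poisson intervals as bars. The ligands, Erbb2 and Tnfrsf12a are higher in both libraries labelled OGT-KO (squares) than in both labelled control (circles), while Egfr and Fgfr4 are lower. Areg had 0 reads in control and is drawn there at the floor of 3 reads, 0.141 and 0.150 CPM.

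Hgf, listed as ENSMUSG00000028864, lies on the plus strand of chromosome 5 from 16553495 to 16620152 in GENCODE M21 (GRCm38). With no recovery it had 4.42 CPM in the library labelled control (interval 3.57 to 5.41) and 23.2 in the library labelled OGT-KO (21.2 to 25.2). After 7 days it had 2.85 (2.16 to 3.70) and 21.8 (19.96 to 23.9). Both libraries labelled OGT-KO thus stood well above both labelled control, with no overlap of the intervals. The ratio was 5.24 with no recovery (4.20 to 6.60) and 7.65 after 7 days (5.81 to 10.3), or 2.16 and 2.57 on the log2(CPM + 1) scale. Markers of stellate cells and myofibroblasts, a main source of HGF, were higher under the OGT-KO label too. All 7 of 7 were at least 2-fold higher at both time points, against 19.2% of compared genes, with none at 0. Des and Acta2 were under 10 CPM in both control libraries and passed the filter only through the libraries labelled OGT-KO. The summed level of the 7 was 120.7 to 170.2 CPM in control and 1639.2 to 1926.2 in the libraries labelled OGT-KO. Of the endothelial markers, 1 of 5 (Aqp1) was called higher at both time points, against 19.2% of compared genes. Their sum was 143.2 to 210.6 CPM in control against 297.0 to 403.1. Their median log2 difference was 0.63 and 0.64, near the 0.51 and 0.48 of the median compared gene, and -0.08 and -0.02 with median ratio scaling. The part of these cells in the level of Hgf was not tested, and in bulk RNA a change in the number of cells and in the RNA per cell cannot be told apart.

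Tgfa (ENSMUSG00000029999, chromosome 6, 86195223 to 86275719, plus strand) was the most abundant of the EGFR ligands per length in every library. Its level was 29.8 CPM in control (27.5 to 32.2) and 78.1 in the library labelled OGT-KO (74.5 to 81.8) with no recovery. After 7 days it was 28.5 (26.2 to 30.9) and 70.7 (67.3 to 74.3). The labels did not overlap, with ratios of 2.62 (2.39 to 2.88) and 2.48 (2.25 to 2.74). On the log2(CPM + 1) scale the difference was 1.36 and 1.28, while median ratio scaling left 0.66 and 0.61, the same direction but short of 2-fold.

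Areg, which encodes amphiregulin (ENSMUSG00000029378, chromosome 5, 91139599 to 91148432, plus strand), had no read in either control library. These were 0 of 21257763 and 0 of 19972699 reads, which allow up to 0.141 and 0.150 CPM at 3 reads, and up to 0.174 and 0.185 by the exact Poisson interval. The library labelled OGT-KO had 11.1 CPM with no recovery (254 reads, 9.78 to 12.6) and 3.81 after 7 days (86 reads, 3.05 to 4.71). Set against the floor of 3 reads, Areg was at least 78.7-fold higher with no recovery and at least 25.4-fold higher after 7 days. The exact 95% interval of the ratio reached lower, to 63.5 and 20.2. Its promoter holds the CRE motif shown above.

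Hbegf (ENSMUSG00000024486, chromosome 18, 36504927 to 36515805, minus strand), the heparin-binding ligand of EGFR, was low throughout. Control had 0.470 CPM with no recovery (10 reads, 0.226 to 0.865) and 0.401 after 7 days (8 reads, 0.173 to 0.789). In the libraries labelled OGT-KO it had 6.56 (5.55 to 7.70) and 7.05 CPM (5.99 to 8.23). The labels did not overlap at either time point, and the ratios of 13.9 (7.38 to 29.7) and 17.6 (8.71 to 41.4) rest on few control reads.

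Egfr (ENSMUSG00000020122, chromosome 11, 16752203 to 16918158, plus strand) was the gene of the 10 with the most reads in all 4 libraries. With no recovery it was at 662 CPM in control (651 to 673) and 244 in the library labelled OGT-KO (237 to 250). After 7 days it was at 1135 CPM in control (1120 to 1150) and 214 in the library labelled OGT-KO (208 to 220). Egfr was thus lower in both libraries labelled OGT-KO, by 2.72-fold (2.63 to 2.80) with no recovery and 5.30-fold (5.13 to 5.47) after 7 days. The log2 difference was -1.44 and -2.40, and -2.16 and -3.08 with median ratio scaling. Of the 10 genes, Egfr alone was parted 2-fold the other way, with both control libraries at least 2-fold above both labelled OGT-KO. Among compared genes 3.35% were so parted, and 2.50% of all listed genes. The opposite parting held for 3 of the 7 compared genes, against 17.3%, and for 6 of all 10, against 24.3% of listed genes.

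Erbb3 (ENSMUSG00000018166, chromosome 10, 128567523 to 128589652, minus strand) ranked second to Egfr among the ErbB receptors in control. Its level was 137 CPM in control (132 to 142) and 88.9 in the library labelled OGT-KO (85.0 to 92.8) with no recovery. After 7 days it was 145 (140 to 150) and 131 (126 to 136), so the labels came close together. The log2 difference was -0.61 and -0.15, neither past 2-fold, while median ratio scaling gave -1.33 and -0.83.

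Erbb2 (ENSMUSG00000062312, chromosome 11, 98412470 to 98437716, plus strand), an orphan receptor and the preferred partner of the other ErbB proteins, was barely present in control. There it had 1.88 CPM with no recovery (40 reads, 1.34 to 2.56) and 1.35 after 7 days (27 reads, 0.891 to 1.97). In the libraries labelled OGT-KO it had 13.1 (11.7 to 14.7) and 13.8 CPM (12.3 to 15.4). The labels did not overlap, with ratios of 6.97 (5.001 to 9.96) and 10.2 (6.87 to 15.7). Its exons share up to 9 bases with Mien1 on the opposite strand, and the strand setting of the counting is not given in the sources used here. Exons of Hgf share up to 484 bases with Gm43489 on the same strand, and those of Tgfa up to 118 bases with Gm43917 on the opposite strand, so reads there are uncertain too.

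The make-up of the ErbB receptors therefore differed between the labels. Per kilobase of exon, Egfr made up 71.7% and 80.5% of the summed level of Egfr, Erbb2 and Erbb3 in control with no recovery and after 7 days. In the libraries labelled OGT-KO its share was 55.5% and 43.7%. Erbb3 held 27.8% and 19.3% of the sum in control against 38.1% and 50.2%, and Erbb2 held 0.443% and 0.208% against 6.49% and 6.11%. The sum itself was 81.5 and 124.6 CPM per kilobase in control, and 38.8 and 43.3 in the libraries labelled OGT-KO. Ligands ran the other way: Tgfa, Areg and Hbegf summed to 4.69 and 4.47 CPM per kilobase in control and to 22.5 and 15.5 in the libraries labelled OGT-KO. Areg, absent in control, held 40.6% of that ligand sum with no recovery and 20.2% after 7 days. The ratio of Egfr to the ligand sum, per length, was 12.5 and 22.4 in control and 0.955 and 1.22 in the libraries labelled OGT-KO. Such ratios within a library do not depend on the scaling between libraries.

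**Figure D2:**
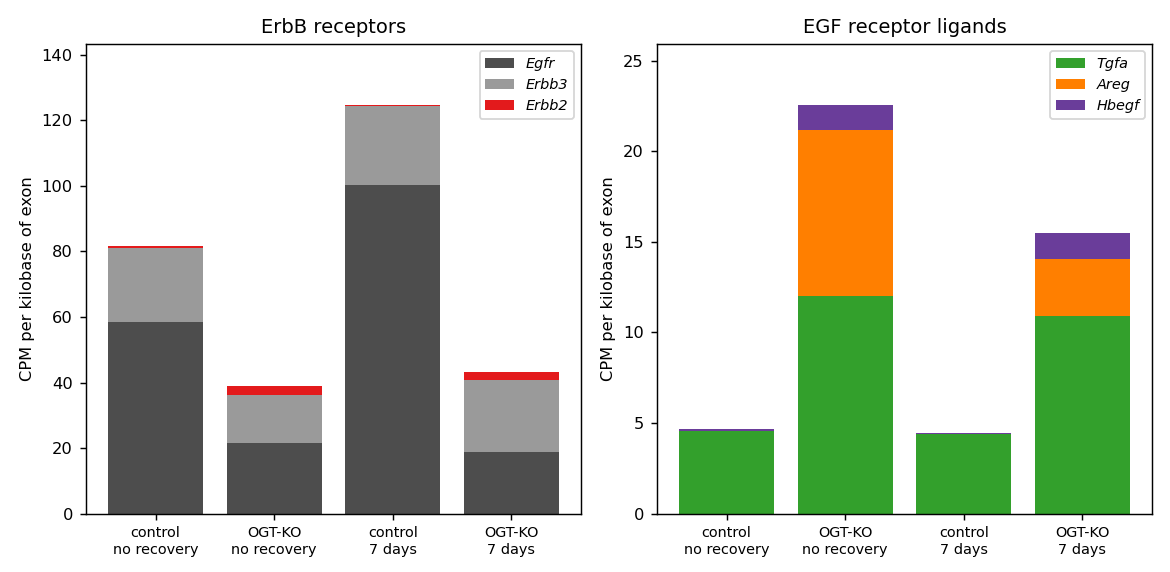
Stacked CPM per kilobase of exon of the ErbB receptors (left) and of the EGFR ligands (right) in the 4 libraries, named by label and time. Receptor bars reach 81.5 and 124.6 in control against 38.8 and 43.3 in OGT-KO, and ligand bars 4.69 and 4.47 against 22.5 and 15.5.

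Met (ENSMUSG00000009376, chromosome 6, 17463800 to 17573980, plus strand), the receptor of HGF, stayed nearly level while its ligand did not. With no recovery it had 63.9 CPM in control (60.5 to 67.4) and 57.4 in the library labelled OGT-KO (54.3 to 60.6). After 7 days it had 57.1 (53.8 to 60.5) and 60.1 (57.0 to 63.4), with overlapping intervals. The ratio of the labels was 0.898 (0.832 to 0.970) and 1.05 (0.973 to 1.14), and its log2 difference of -0.15 and 0.07 became -0.86 and -0.60 with median ratio scaling, so the direction after 7 days flips with the scaling. Per kilobase, Met stood 13.5 and 18.7 times above Hgf in control, and 2.32 and 2.58 times above it in the libraries labelled OGT-KO.

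Fgfr4 (ENSMUSG00000005320, chromosome 13, 55152640 to 55168759, plus strand) was lower in the libraries labelled OGT-KO, and less so after recovery. It had 63.4 CPM in control (60.0 to 66.8) and 17.4 in the library labelled OGT-KO (15.7 to 19.2) with no recovery. After 7 days these were 61.7 (58.3 to 65.3) and 38.9 (36.4 to 41.6). The labels did not overlap at either time point. Fgfr4 was 3.64-fold lower (3.25 to 4.08) with no recovery and 1.59-fold lower (1.45 to 1.73) after 7 days, and the log2 difference of -1.81 and -0.65 was -2.50 and -1.32 with median ratio scaling.

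Some hepatocyte markers were lower along with Egfr and Fgfr4. Of 7 such markers, 3 were at least 2-fold lower at both time points in the libraries labelled OGT-KO (Apoa1, Apoa2 and Serpina1a), against 3.74% of compared genes. None of the 7 was higher or at 0. These calls hold at the deposited scaling. There the log2 difference with no recovery and after 7 days was -0.21 and -0.08 for Alb. It was -0.43 and -0.05 for Cps1 and -0.87 and -0.44 for Ttr. With median ratio scaling Alb was at -0.93 and -0.77 and Cps1 at -1.15 and -0.74. Ttr was then past 2-fold at both time points, at -1.59 and -1.13. The list median of -1.34 and -0.91 became -2.06 and -1.599 with median ratio scaling. The summed level of the 7 was 75204.7 and 83434.9 CPM in control and 52599.9 and 64614.4 in the libraries labelled OGT-KO. Hnf4a, the master regulator of hepatocyte identity, was at 851 and 864 CPM in control against 335 and 458. The part of hepatocyte content in the level of these receptors was not tested.

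Tnfrsf12a (ENSMUSG00000023905, chromosome 17, 23675445 to 23677468, minus strand) showed the highest log2 difference of the 7 compared genes. Control had 7.29 CPM with no recovery (6.19 to 8.53) and 7.86 after 7 days (6.68 to 9.19). In the libraries labelled OGT-KO it was at 158 (153 to 163) and 98.3 CPM (94.3 to 102.5). The labels stood far apart at both time points, with ratios of 21.6 (18.4 to 25.6) and 12.5 (10.6 to 14.8), or 4.26 and 3.49 on the log2(CPM + 1) scale. With no recovery this exceeded 99.4% of compared genes. Duct and progenitor markers were higher under the OGT-KO label too. At both time points 6 of 6 were at least 2-fold higher, against 19.2% of compared genes, and none was at 0. Their sums were 54.1 and 70.7 CPM in control against 1164.4 and 1480.9, so over recovery under that label the sum rose while Tnfrsf12a fell. Krt19, Krt7, Epcam and Cldn7 were under 10 CPM in both control libraries and passed the filter only through the libraries labelled OGT-KO. Among Kupffer cell and macrophage markers 4 of 4 past the filter were at least 2-fold higher at both, against that 19.2% of compared genes. With median ratio scaling Clec4f fell short with no recovery, at 0.50, while Adgre1, Cd68 and Csf1r stayed past 2-fold at both. Under the filter, Timd4 was at 0.71 and 0.995 at the deposited scaling and Ccr2 at 3.23 and 3.70. The sums of this marker list were 157.7 and 61.1 CPM in control against 513.2 and 391.8. Whether these cells carry the reads of Tnfrsf12a or Erbb2 was not tested.

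**Figure D3:**
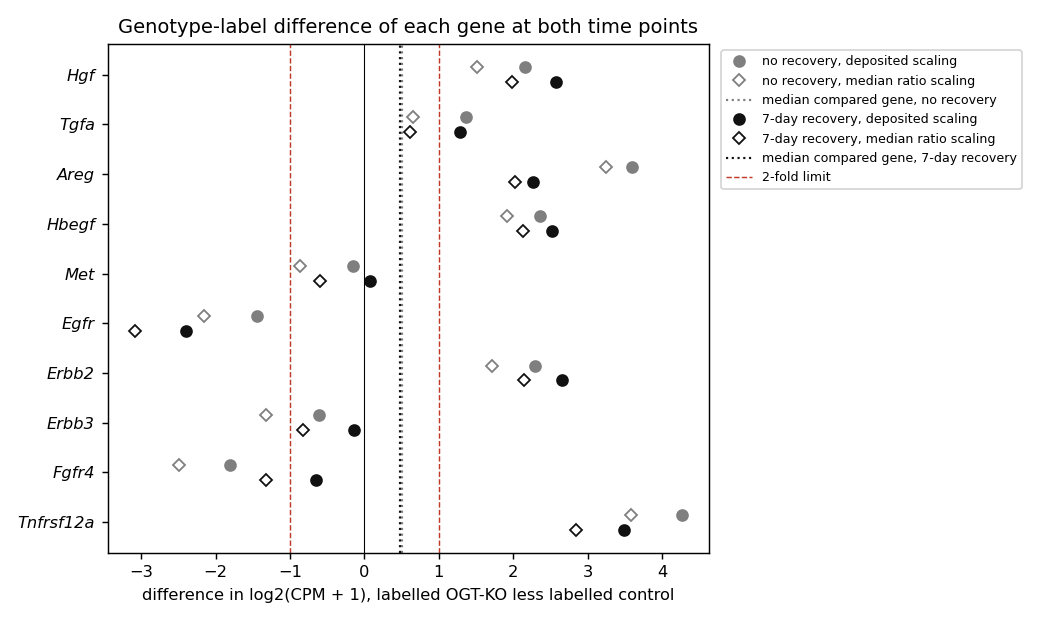
Difference in log2(CPM + 1) between the labels, OGT-KO less control, for each gene with no recovery (grey) and after 7 days (black), at the deposited scaling (filled) and with median ratio scaling (open). Dotted lines give the median compared gene, 0.51 and 0.48, and dashed lines the 2-fold limits. All 4 ligands, Erbb2 and Tnfrsf12a lie right of 0 under both scalings, Egfr, Fgfr4 and Erbb3 lie left of it, and Met changes side after 7 days.

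Per kilobase of exon the order of the 10 genes was the same in both control libraries, from Egfr, Erbb3, Fgfr4, Met, Tgfa and Tnfrsf12a down to Hgf, Erbb2, Hbegf and Areg. Tgfa and Tnfrsf12a lay close, at 4.59 and 3.77 CPM per kilobase with no recovery, a ratio of 1.22 (1.02 to 1.46). After 7 days they were at 4.39 and 4.07, within counting error (1.08, 0.903 to 1.30). Hbegf and Areg could not be parted in control, nor could Hgf and Erbb2 after 7 days. In the libraries labelled OGT-KO Tnfrsf12a led with 81.6 and 50.9 CPM per kilobase. With no recovery Egfr followed at 21.5 and Erbb3 at 14.8, and after 7 days Erbb3 stood at 21.7 and Egfr at 18.9. After 7 days Fgfr4 and Tgfa, at 10.98 and 10.9 CPM per kilobase, were within counting error of each other, as were Areg, Hgf and Erbb2 as neighbours, at 3.14, 3.04 and 2.65.

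Recovery was compared within each label. In control, 0 of the 7 compared genes were called higher after 7 days, against 0.245% of compared genes, and 0 were called lower, against 0.960%. Hgf was 1.55-fold lower (1.10 to 2.19) after 7 days. Egfr came closest to a call, 1.71-fold higher after 7 days (1.68 to 1.75), a log2 difference of 0.78 that exceeded 99.5% of compared genes. In the libraries labelled OGT-KO, Egfr was 1.14-fold lower after 7 days (1.09 to 1.18). There Fgfr4 alone was called higher, by 2.24-fold (1.98 to 2.52) and 1.12 on the log2 scale, against 1.04% of compared genes. No compared gene of the set was called lower in those libraries, against 0.435%. Tnfrsf12a came closest, 1.604-fold lower (1.52 to 1.69), while in control the ratio of 7 days to no recovery was 1.08 (0.858 to 1.36). Areg, under the filter, was 2.91-fold lower after 7 days (2.27 to 3.77), 1 of 10 genes against 0.791% of all listed genes. Erbb3 was 1.47-fold higher (1.39 to 1.56) after 7 days in the libraries labelled OGT-KO and 1.06-fold higher (1.007 to 1.12) in control. Tgfa, Hgf, Hbegf, Met and Erbb2 had ratios of 0.905 to 1.07 over recovery in the libraries labelled OGT-KO.

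The genotype difference itself changed by more than 2-fold between the time points for Fgfr4, by 1.153 on the log2 scale, 1 of 7 genes against 2.09% of compared genes. In the other direction 0 of 7 were past 2-fold, against 0.647%, and Egfr lay just short of it at -0.96. Without the filter Areg was past it at -1.33, 1 of 10 genes against 1.03% of listed genes. Over recovery Kupffer cell and macrophage markers moved too: 4 of 4 past the filter were at least 2-fold lower in control after 7 days, against 0.960% of compared genes. In the libraries labelled OGT-KO 0 of 4 were past 2-fold, against 1.04% of compared genes higher and 0.435% lower. Under the filter, Timd4 changed by -1.19 on the log2 scale in control and -0.91 under the OGT-KO label, and Ccr2 by 0.04 and 0.51. The part of these cells in the differences of the 10 genes was not tested.

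**Figure D4:**
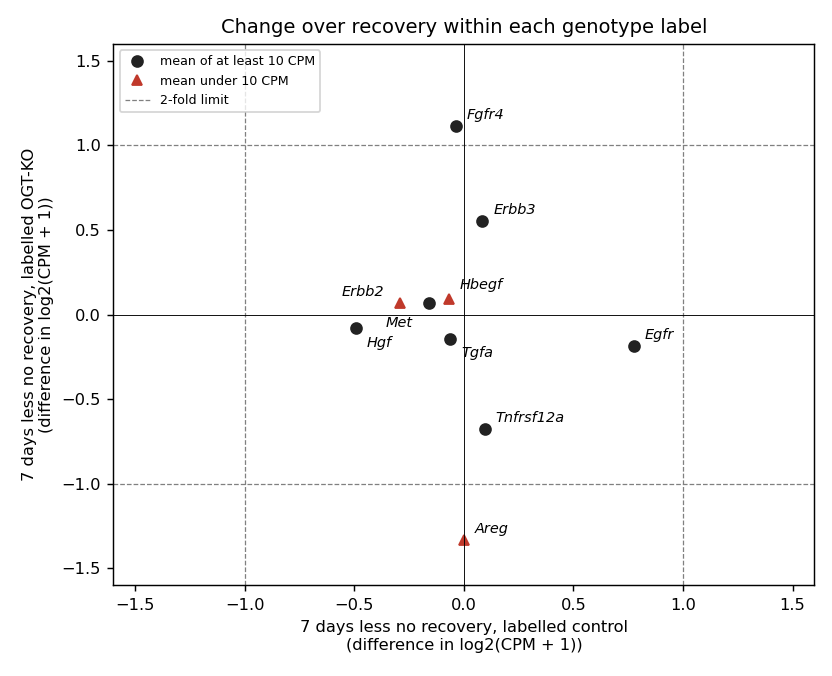
Change from no recovery to 7 days, in log2(CPM + 1), in control (horizontal) and in the libraries labelled OGT-KO (vertical), 1 point per gene, triangles for genes under the filter. Fgfr4 lies above the 2-fold limit (1.12) and Areg below it (-1.33) on the vertical axis alone, and Egfr lies furthest right (0.78).

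Other genes of these pathways were read from 8 lists with 78 genes, of which 76 were in the table and 50 were compared. At both time points 20 of the 50 were at least 2-fold higher in the libraries labelled OGT-KO, against 19.2% of compared genes, and 3 were at least 2-fold lower, against 3.74%. Of the 20, 9 were under 10 CPM in both control libraries and so passed the filter only through the libraries labelled OGT-KO, so the count is partly fixed by the filter. These 9 include Nrg1, Rhbdf1, St14, Plat, Spint1, Gab2 and Spry1. With median ratio scaling 10 were higher, against 9.35% of compared genes, and 5 were lower, against 10.4%. All of those 10 but Jun, Myc and Ccnd1 are among the 9 that the filter kept for their level under the OGT-KO label. The shares of compared genes given here at each scaling also apply to the counts of each list below. Adam10 and Adam17, the main sheddases of EGFR ligands, and their iRhom cofactors Rhbdf1 and Rhbdf2 were higher at both, 4 of 5 compared genes, with a list median of 1.56 and 1.67. With median ratio scaling the median was 0.86 and 1.003, and of these Rhbdf1 alone stayed past 2-fold at both. Adam17 was at 29.5 and 27.7 CPM in control against 61.2 and 68.6, and Rhbdf1 at 7.95 and 9.36 against 40.8 and 41.6. Adam10 was at 25.1 and 24.5 CPM against 79.2 and 80.2, and Rhbdf2 at 21.1 and 13.4 against 64.3 and 49.1. These calls hold at the deposited scaling. Adam9, which also releases membrane precursors, was at 83.6 and 73.5 CPM in control against 55.2 and 64.7.

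Of the other EGF family genes 7 of 8 were in the table and 2 were compared. Nrg1, a neuregulin ligand of ERBB3, was at 0.847 and 0.851 CPM in control and at 69.6 and 31.6 in the libraries labelled OGT-KO. Its log2 difference was 5.26 and 4.14, against -0.61 and -0.15 for its receptor gene Erbb3. Nrg4 was at 11.5 CPM in both control libraries and at 30.4 and 19.3 in those labelled OGT-KO, past 2-fold with no recovery only.

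Around HGF and MET, 7 of 11 listed genes were compared. Plat (tissue plasminogen activator), St14 (matriptase, an activator of HGF) and Spint1 (an inhibitor of HGF activator) were higher at both time points. Plat had 0.423 and 0.300 CPM in control against 55.5 and 117.0, and St14 had 0.847 and 1.202 against 38.8 and 43.3. Spint1 had 0.706 and 1.001 CPM against 18.02 and 21.7. Hgfac, the HGF activator secreted by hepatocytes, was lower, with 214 and 246 CPM in control against 102.3 and 97.3. Mst1, the liver-made ligand of the MET relative RON, was at 204 and 199 CPM against 199 and 173, and Hpn (hepsin) at 451 and 474 against 303 and 354. The list median was 0.99 and 0.96, and 0.27 and 0.28 with median ratio scaling, which kept those 3 higher and added Hpn to Hgfac among the lower.

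In the FGF receptor axis, 7 of 10 listed genes were compared, with a median of 0.40 and 0.68 that turned to -0.29 and 0.02 with median ratio scaling. Fgfr3 was higher at both time points, at 43.8 and 55.4 CPM in control against 110.7 and 143.6, a log2 difference of 1.32 and 1.36 that was short of 2-fold with median ratio scaling, at 0.61 and 0.68. Fgf1 was lower, at 91.6 and 81.3 CPM against 11.8 and 17.8. Klb, the β-Klotho co-receptor of FGFR4, was at 20.2 and 20.5 CPM in control against 22.5 and 21.2, and Fgfrl1, a receptor without a kinase domain, at 23.9 and 26.4 against 24.4 and 28.7. The small differences of Klb and Fgfrl1 turn negative with median ratio scaling.

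Of the TWEAK list 6 of 11 genes were compared and 1 was higher at both times, the list median being 0.96 and 1.153, or 0.27 and 0.52 with median ratio scaling. This was Nfkb2, a target and effector of noncanonical NF-κB signaling, at 12.7 and 12.0 CPM in control against 34.0 and 34.4, and it was short of 2-fold with median ratio scaling, at 0.67 and 0.80. TWEAK itself, encoded by Tnfsf12, was under the filter at 6.12 and 6.41 CPM in control against 6.65 and 8.46, while its receptor Tnfrsf12a differed more than 10-fold. Birc2, which encodes cIAP1, was at 15.9 and 18.9 CPM against 37.1 and 32.97, and Cd163, a macrophage scavenger receptor, at 14.0 and 5.76 against 20.5 and 15.2.

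Among the receptor adaptors all 8 listed genes were compared and 1, the docking protein gene Gab2, was higher at both time points, at 2.92 and 1.502 CPM in control against 22.5 and 19.9. The list median of 0.59 and 0.72 lay near that of all compared genes and was -0.10 and 0.05 with median ratio scaling. Sos1 was at 40.9 and 34.1 CPM in control against 40.6 and 38.4, and Pik3r1 at 77.3 and 74.6 against 68.9 and 71.3.

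Of the feedback inhibitors of receptor tyrosine kinases 11 of 16 were compared, with a list median of 1.18 at each time point. At both, 6 were higher, against 19.2% of compared genes, and 1 was lower, against 3.74%. With median ratio scaling the median was 0.50 and 0.56. Of the 6, Spry1 alone then stayed past 2-fold at both, against 9.35% of compared genes, and 1 gene was lower, against 10.4%. Spry1, an ERK-induced inhibitor of the pathway, was at 4.61 and 2.85 CPM in control against 27.4 and 29.9. Dusp6, the ERK phosphatase, was at 29.6 and 21.7 CPM against 82.8 and 65.9. Cbl, the ubiquitin ligase that removes EGFR and MET from the surface, was at 9.22 and 10.1 CPM against 38.7 and 33.5, and Spred1 at 13.7 and 12.97 against 32.5 and 38.1. Errfi1 (MIG6), a direct inhibitor of EGFR, went the other way like Egfr itself, with 1236 and 896 CPM in control against 466 and 356. Lrig1, which promotes ErbB receptor loss, was at 39.9 and 37.1 CPM against 26.9 and 32.5, and Lrig3 at 7.39 and 10.4 against 13.1 and 10.6.

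Of the transcription factors induced by ERK and cyclin D1, 4 of 8 were compared, with a list median of 2.31 and 1.98. At both time points 3 were higher (Jun, Myc and Ccnd1), against 19.2% of compared genes. With median ratio scaling the median was 1.5995 and 1.32. The same 3 then stayed past 2-fold at both, against 9.35% of compared genes. Ccnd1, which encodes the cyclin that takes hepatocytes through G1, was at 42.5 and 47.3 CPM in control against 250.8 and 437. Myc was at 11.1 and 11.5 CPM against 69.7 and 43.5, and Jun at 31.2 and 20.8 against 135 and 93.9. Egr1 was at 57.2 and 40.2 CPM in control against 40.3 and 67.6, and so was lower under the OGT-KO label with no recovery and higher after 7 days, neither past 2-fold. Over recovery, 1 of the 50 compared pathway genes was past 2-fold in control (Cd163, which fell). Among all compared genes 0.245% were called higher there and 0.960% lower. Under the OGT-KO label 2 were past 2-fold, as Plat rose and Nrg1 fell. The shares of all compared genes were 1.04% for a rise and 0.435% for a fall under that label.

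**Figure D5:**
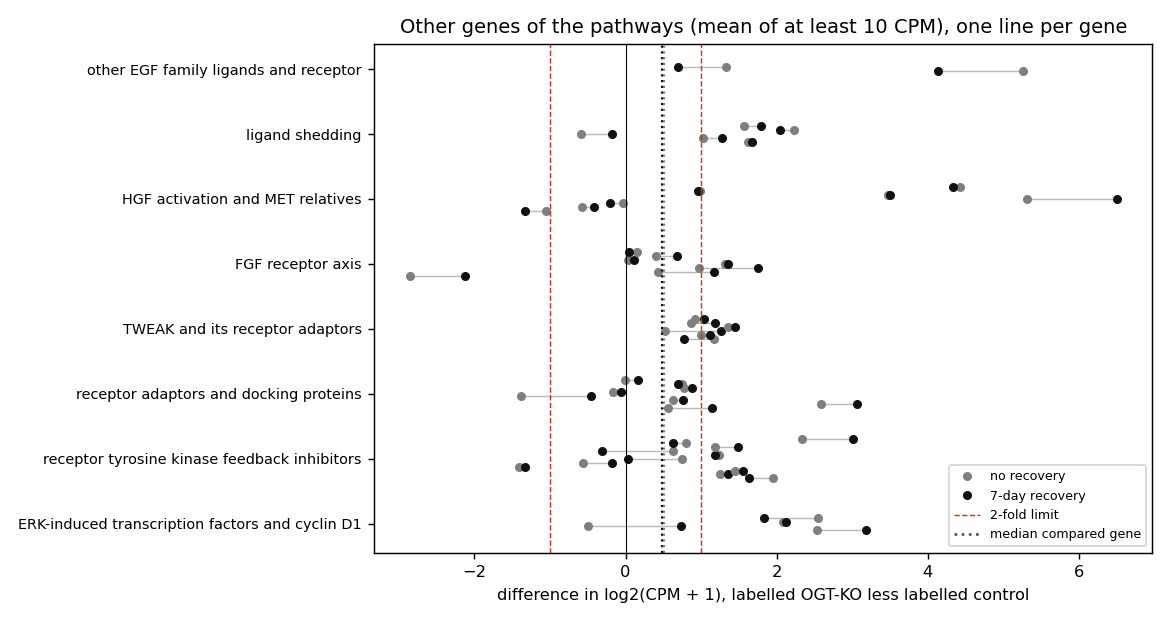
Difference in log2(CPM + 1), OGT-KO less control, of the 50 compared genes of the 8 pathway lists at the deposited scaling, with a line joining no recovery (grey) and 7 days (black) for each gene. Ligand shedding and ERK-induced genes lie mostly right of the 2-fold limit, and most adaptors lie around the median compared gene (dotted, 0.51 and 0.48).

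Genes with the most similar pattern were sought for the 4 compared genes with the largest mean difference over both times at the deposited scaling, by the root mean square distance of log2(CPM + 1) less its mean, over the 4 libraries. With so few libraries many genes share a pattern by their label difference alone. The nearest to Tnfrsf12a were S100a6, Basp1 and Elovl7, at distances of 0.13, 0.15 and 0.15, and 20 genes lay within 0.25. Hgf lay nearest to Frmd4a, Wipf1 and Itm2c, at 0.03, 0.04 and 0.05, with 254 genes within 0.25. For Egfr they were Nlrp12, Saa4 and Apoa1, at 0.14, 0.16 and 0.18, and only 6 genes lay within 0.25. Tgfa had the most common pattern, with Llgl1, Swap70 and Rps6ka4 at 0.02 each and 1500 genes within 0.25.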

How the data were processed

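The authors deposited CPM, read counts per gene scaled to a total of 1000000 in each library, although the table is named for DESeq2 normalization. Every value (100% in each library, within 0.01 read) was a whole multiple of the value of 1 read, so whole reads were recovered. The submitters' processing notes name STAR, DESeq2 and GRCm39 without versions or roles; the filter, counter and strand setting are not given in the sources used here. Lengths and positions came from GENCODE M21 (GRCm38) by gene identifier, since no GRCm39 annotation was used here, and promoters from RefSeq (GRCm38.p6). Erbb3 and Hbegf had no promoter entry.

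Differences are of log2(CPM + 1) between single libraries. Ratios carry exact (Clopper-Pearson) intervals conditional on both counts. The rule for named genes took all 10 genes, up to 5 genes per pathway list called at both time points with the largest mean change, up to 2 with the smallest, and the 3 nearest patterns of 4 genes. The genes and lists were chosen with earlier results of these data known. Alternatives were pseudocounts of 0.1 and 10, no filter, a mean of at least 50, upper quartile and median ratio scaling, a 4-fold limit, and a 2-fold limit joined with an exact binomial test of the reads (Benjamini-Hochberg adjusted, 0.05), a test of these libraries rather than of the conditions, which called 2185 and 2050 genes higher and 510 and 383 lower. Steps were tested on simulated reads. The lymphocyte list (3 of 6 in the table) and the neutrophil list (2 of 2) had no gene past the filter and summed to 1.10 to 4.81 and 0.551 to 12.8 CPM. Python 3.11.15 was used with numpy 2.4.6, pandas 2.3.3, scipy 1.17.1 and matplotlib 3.10.9.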

Additional observations from a re-analysis of the deposited data

Results flagged for a closer look

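Egfr changed in opposite directions over recovery in the labels, 0.78 in control but -0.19 under the OGT-KO label on the log2(CPM + 1) scale, each with a ratio whose counting interval left out 1. This difference was not tested, since each condition has 1 library. It kept its sign with median ratio scaling, at 0.82 and -0.11.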

How the results depend on the processing

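Of 92 recomputed counts of the 10 genes, 74 stayed within 1.5 times, among them counts of 0 that stayed at 0. Of 200 recomputed log2 differences, 100 stayed closer to the main value than their counting interval reached. The other 100 moved further or had no such interval. With no filter, 6 of the 10 genes were higher under the OGT-KO label at each time point and parted by label. Areg then added 1 lower over recovery and 1 lower difference between time points. A mean of at least 50 left 5 genes, of which 1 was lower with no recovery, and 0 were called over recovery in the libraries labelled OGT-KO or between time points. Upper quartile and median ratio scaling each gave 2 lower after 7 days (Egfr and Fgfr4) and 2 parted lower, and left Tgfa under 2-fold. Each also added Erbb3 to the genes called lower with no recovery. At 4-fold, 0 were lower with no recovery, 0 parted lower, and 0 called over recovery or between time points. A pseudocount of 10 also left 0 for the last pair. No called difference of the 10 genes reversed.

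Over all compared genes, those higher numbered 2185 and 2050 (no recovery, 7 days) and those lower 510 and 383. They were 1367 and 1344 higher with a pseudocount of 10, 4595 and 4492 with no filter, 525 and 503 at a mean of 50, and 691 and 788 higher and 164 and 87 lower at 4-fold. Upper quartile scaling gave 1220 and 1223 higher and 966 and 731 lower, and median ratio scaling 935 and 1038 higher and 1381 and 1055 lower. Those parted by label, 1555 higher and 300 lower, were 972 higher with a pseudocount of 10, 3374 with no filter and 365 at a mean of 50, 943 and 565 with upper quartile scaling, 773 and 845 with median ratio scaling, and 556 and 72 at 4-fold. Over recovery 22 were higher and 86 lower in control, and 93 and 39 under the OGT-KO label. A pseudocount of 0.1 gave 35 and 130 in control, a pseudocount of 10 gave 12 and 21 and then 39 and 18, a mean of 50 gave 11 and 31 and then 40 and 14, and 4-fold gave 3 and 2 and then 7 and 1. With no filter 134 were lower in control, and 178 were higher and 110 lower under the OGT-KO label. Differences between time points, 187 and 58, were 54 and 32 with a pseudocount of 10, 351 and 143 with no filter, 73 and 20 at a mean of 50, and 9 and 5 at 4-fold. The read test, run on the genotype and recovery differences alone, removed no call there. In alternatives chosen after the data were seen, the count of pathway genes called at both times (20 higher, 3 lower) was 35 higher with no filter, 5 at a mean of 50, 13 with upper quartile scaling, 10 higher and 5 lower with median ratio scaling, and 9 and 1 at 4-fold. The cause of these changes was not tested. Depth limits Areg and Hbegf in control, at 0 to 10 reads.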

Other observations

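Some low genes of the same pathways, named after their values were seen, stood apart between the labels as well. With no filter, 26.9% of all listed genes were at least 2-fold higher at both time points, so this is not particular to them. The urokinase system, which activates HGF and plasminogen, was under the filter: Plau had 0.894 and 1.30 CPM in control against 13.6 and 10.7 under the OGT-KO label, and its receptor gene Plaur 0.564 and 0.551 against 21.9 and 12.0. Of the remaining EGFR ligands, Btc (betacellulin) had 1.599 and 2.00 CPM in control against 13.3 and 12.8, and Ereg (epiregulin) 0.376 and 0.300 against 4.37 and 2.53. The control values rest on few reads: 19 and 26 for Plau, 12 and 11 for Plaur, 34 and 40 for Btc, 8 and 6 for Ereg. Egf itself did not stand apart in this way. It had 0.470 and 0.751 CPM in control against 1.31 and 0.886, a log2 difference of 0.65 with no recovery and 0.11 after 7 days.

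Fgf21, a stress hormone of the hepatocyte, was at 0.329 and 1.70 CPM in control (7 and 34 reads) and at 9.36 and 4.25 in the libraries labelled OGT-KO. It was thus higher after recovery in control and lower after recovery in the other label. This difference was not tested.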
